A study of Homo sapiens with 54 samples.

Results

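AFF2, ZNF286A, EPB41L5, TCEANC2 and C16orf87 are 5 genes without a well-known role in the interferon response whose RNA was higher in lymphoma cells expressing mutant STAT6 than in cells expressing wild-type STAT6. They were picked from earlier results on these same libraries for that higher level, and matched by Ensembl identifier they are 5 of the 31835 rows of the count table. Their difference between STAT6MUT and STAT6WT cells is therefore given below as a description without a test. What the choice did not use, namely the differences among the mutant lines, the changes with time and the change of the difference with time, was tested.

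The cells were OCI-Ly1, a B cell lymphoma line that carries a variant of its own in the STAT6 DNA-binding domain. All of them were stably transduced with a Flag-tagged STAT6 cDNA under a CMV promoter, either wild-type (STAT6WT) or 1 of the DNA-binding domain mutants D419G, D419N and N421K (STAT6MUT). Every culture received an IL-4 pulse of 10 ng/ml for 20 min, was washed, and was harvested 2, 4 or 8 h later, so there were no unstimulated cells in the comparison. The 54 libraries comprised 9 STAT6WT and 3 of each mutant line at each time point. The labels call the replicates biological, without saying whether they are separate transductions, so the p-values measure the spread between these cultures. Each library was a bulk sample, in which fewer cells with a transcript and less of it per cell cannot be told apart. The time points lay in different rows of the plate, so time and plate row cannot be told apart either.

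Totals ranged from 161518 to 2978715 unique molecular identifiers (UMIs, each standing for 1 captured RNA molecule) per library, with a median of 885258. Of the 8 libraries under 0.5 of the median, 6 were STAT6MUT and 2 STAT6WT. Levels are given as CPM, counts per 1000000 UMIs after TMM scaling. STAT6 itself was at 165 CPM ± 22.9 (SD, n = 27) in STAT6WT, 154 ± 30.1 (n = 9) in D419G, 157 ± 29.7 (n = 9) in D419N and 138 ± 23.8 (n = 9) in N421K cells, and these counts do not separate the introduced from the cells' own transcript. All 9 B cell markers passed the count filter, whereas the 11 markers of T cells, myeloid cells, NK cells, platelets and red cells summed to at most 5.05 CPM in any library, with CD3E, CD3D, NKG7 and PF4 not in the table.

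Upon IL-4 binding, Janus kinases phosphorylate STAT6, which then dimerizes, enters the nucleus and binds short palindromic elements of the form TTCNNNNGAA, or less often TTCNNNGAA, near its target genes. Interferons act through related STAT proteins, and their target genes often carry elements of the form GAAANNGAAA. The 5 genes belong to unrelated families. AFF2 is a member of the AFF/FMR2 family of nuclear proteins, whose best known members are scaffolds of complexes that promote transcription elongation, and its silencing by a repeat expansion underlies the fragile site FRAXE. ZNF286A is a C2H2 zinc finger protein of the KRAB type, a class that typically binds DNA and recruits the corepressor TRIM28. EPB41L5 is a band 4.1 protein that binds Crumbs at the membrane of polarized epithelia and takes part in cell shape and adhesion changes. TCEANC2 carries a domain related to the N-terminal domain of the elongation factor TFIIS, and C16orf87 is a small, little characterized protein.

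In GRCh38 (GENCODE 44), AFF2 (ENSG00000155966) spans chrX:148500617-149000663 on the plus strand, ZNF286A (ENSG00000187607) chr17:15699577-15720787 plus, EPB41L5 (ENSG00000115109) chr2:120013077-120179119 plus, TCEANC2 (ENSG00000116205) chr1:54053584-54112519 plus and C16orf87 (ENSG00000155330) chr16:46796603-46831180 minus. Each had a RefSeq promoter window (GRCh38.p14, 250 bases before to 50 after a transcript start). The sequences of 2 of them are shown because they hold a match to 1 of the 2 STAT patterns named above. In the window of TCEANC2 the capitals mark 2 matches to TTCNNNNGAA, beginning 28 bases before and 26 bases after the start, and in that of ZNF286A they mark 1 match to TTCNNNGAA, beginning 96 bases before it.

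TCEANC2 chr1:54053358-54053657 plus strand: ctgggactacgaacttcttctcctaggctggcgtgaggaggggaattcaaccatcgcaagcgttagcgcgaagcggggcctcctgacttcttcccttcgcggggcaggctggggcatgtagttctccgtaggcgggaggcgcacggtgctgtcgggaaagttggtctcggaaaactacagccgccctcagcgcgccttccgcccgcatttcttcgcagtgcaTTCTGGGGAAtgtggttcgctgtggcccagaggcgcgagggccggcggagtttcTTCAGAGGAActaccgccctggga

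ZNF286A chr17:15699502-15699801 plus strand: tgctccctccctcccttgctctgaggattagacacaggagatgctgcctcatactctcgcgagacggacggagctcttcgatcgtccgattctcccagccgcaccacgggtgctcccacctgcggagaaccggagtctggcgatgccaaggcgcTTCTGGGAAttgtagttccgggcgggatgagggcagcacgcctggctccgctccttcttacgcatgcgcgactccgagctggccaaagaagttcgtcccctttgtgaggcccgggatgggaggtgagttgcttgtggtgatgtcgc

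The 2 patterns, with N for any base, read the same on both strands, whereas the full letters of the marked matches do not. Among all 35116 promoter windows of this length, 6.44% hold TTCNNNNGAA, 7.66% hold TTCNNNGAA and 0.29% hold TTCNNNNGAA at 2 or more positions. The windows of AFF2, EPB41L5 and C16orf87 hold neither. For AFF2 the window lies at a start 218 kb inside the annotated gene. GAAANNGAAA, searched on both strands and present in 3.57% of all windows, is in none of the 5. These matches are a description of letters within 300 bases.

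AFF2 had the largest difference of the 5. In STAT6WT cells it ranged from 1.76 to 11.8 CPM at 2 h (median 3.65), from 0 to 11.54 at 4 h (median 3.85) and from 0.924 to 9.20 at 8 h (median 5.60), with 9 libraries at each time. D419G cells had 16.6, 13.9 and 16.2 CPM at 2 h, 11.6, 15.4 and 11.3 at 4 h, then 10.8, 20.5 and 10.8 at 8 h. D419N cells had 19.6, 30.5 and 14.2 CPM at 2 h, 28.6, 11.7 and 14.6 at 4 h, then 14.9, 17.8 and 5.94 at 8 h. All 9 STAT6MUT libraries at 2 h, and 8 of 9 at each later time, exceeded every STAT6WT library. N421K cells had 24.0, 26.3 and 37.1 CPM at 2 h, 34.9, 29.2 and 33.7 at 4 h, then 32.2, 15.2 and 31.0 at 8 h. The N421K library at 15.2 CPM at 8 h rests on 3 UMIs and lay among the D419G values of that time. Across time points AFF2 was 2.27 higher in STAT6MUT on the log2 scale (SE 0.169, 4.82-fold), with 1.67 (SE 0.224) in D419G, 1.94 (SE 0.209) in D419N and 2.75 (SE 0.1605) in N421K.

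ZNF286A was separated from STAT6WT in 26 of the 27 STAT6MUT libraries. STAT6WT libraries ranged from 2.09 to 7.04 CPM at 2 h (median 4.90), from 0 to 7.59 at 4 h (median 3.85) and from 0.924 to 7.23 at 8 h (median 3.01). D419G cells had 17.3, 41.8 and 13.7 CPM at 2 h, 11.6, 23.1 and 11.3 at 4 h, then 15.6, 12.3 and 13.9 at 8 h. D419N cells had 9.82, 11.4 and 8.29 CPM at 2 h, 17.6, 16.2 and 12.2 at 4 h, then 12.2, 15.6 and 5.94 at 8 h. The last of these, from the library with the fewest UMIs, was a single UMI and the only STAT6MUT value within the STAT6WT range. N421K cells had 16.3, 17.5 and 12.7 CPM at 2 h, 15.6, 9.30 and 13.9 at 4 h, then 12.1, 15.2 and 14.8 at 8 h. The log2 difference was 1.87 over all mutants (SE 0.151, 3.65-fold), and by line 2.06 (SE 0.211) in D419G, 1.68 (SE 0.221) in D419N and 1.86 (SE 0.190) in N421K.

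The other 3 genes differed less. EPB41L5 overlapped widely between genotypes, with only 3 of 27 STAT6MUT libraries above every STAT6WT library. It ranged from 3.84 to 17.7 CPM at 2 h (median 7.57), from 2.78 to 12.8 at 4 h (median 8.08) and from 1.62 to 11.3 at 8 h (median 7.16) in STAT6WT. D419G cells had 13.5, 6.97 and 17.4 CPM at 2 h, 18.6, 12.8 and 0 at 4 h, then 8.41, 4.09 and 12.3 at 8 h. The 0 comes from a shallow library, in which 3 UMIs would be 16.9 CPM, so the level there was not detectable at this depth. D419N cells had 15.8, 19.1 and 15.4 CPM at 2 h, 6.60, 17.1 and 6.10 at 4 h, then 1.36, 13.4 and 5.94 at 8 h. N421K cells had 17.4, 14.6 and 15.6 CPM at 2 h, 15.6, 13.3 and 11.9 at 4 h, then 4.70, 20.2 and 9.44 at 8 h. At 2 h every D419N and N421K library was above 7 of the 9 STAT6WT libraries, whereas at 8 h the lines scattered on both sides of the STAT6WT median. Its log2 difference was 0.69 over all mutants (SE 0.153, 1.62-fold), and 0.67 (SE 0.235), 0.61 (SE 0.226) and 0.77 (SE 0.196) in D419G, D419N and N421K.

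TCEANC2 in STAT6WT ranged from 14.1 to 25.6 CPM at 2 h (median 19.4), from 16.7 to 40.5 at 4 h (median 19.6) and from 18.9 to 33.8 at 8 h (median 23.8). At 2 h the 3 N421K libraries were at 59.9, 63.3 and 60.04 CPM, the D419G libraries at 42.9, 45.3 and 38.6, and the D419N libraries at 45.3, 30.5 and 27.2. All 9 were above every STAT6WT library. At 4 h N421K cells had 38.6, 26.6 and 59.5 CPM, D419G cells 45.3, 41.03 and 28.2, and D419N cells 35.2, 35.1 and 36.6. By 8 h the values were 28.2, 5.05 and 26.97 CPM in N421K, 27.6, 20.5 and 24.7 in D419G and 23.1, 20.1 and 41.6 in D419N. Only the last of these, from 7 UMIs, lay above the STAT6WT range, and the value of 5.05 is a single UMI. The log2 difference over all time points was 0.76 (SE 0.101, 1.69-fold), with 0.63 (SE 0.148), 0.57 (SE 0.144) and 0.96 (SE 0.120) in D419G, D419N and N421K.

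C16orf87 had the most UMIs of the 5, with a median of 45 in STAT6WT and 67 in STAT6MUT libraries. It ranged from 67.7 to 90.3 CPM at 2 h (median 79.2), from 31.9 to 58.9 at 4 h (median 42.3) and from 36.6 to 65.5 at 8 h (median 47.5) in STAT6WT. D419G cells had 101, 132 and 97.0 CPM at 2 h, 77.9, 79.5 and 84.7 at 4 h, then 60.1, 67.1 and 61.7 at 8 h. D419N cells had 125, 118 and 125 CPM at 2 h, 73.7, 48.6 and 65.9 at 4 h, then 62.5, 57.9 and 41.6 at 8 h. Every STAT6MUT library exceeded every STAT6WT library at 2 h and 8 of 9 did so at 4 h, but 2 of 9 at 8 h. N421K cells had 118, 147 and 137 CPM at 2 h, 95.8, 79.7 and 81.4 at 4 h, then 57.8, 65.7 and 60.7 at 8 h. The log2 difference was 0.64 (SE 0.060, 1.55-fold), with 0.55 (SE 0.088), 0.55 (SE 0.086) and 0.75 (SE 0.075) in D419G, D419N and N421K.

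For reference, 13.4% of the 9261 genes tested differed between STAT6MUT and STAT6WT across time points (edgeR quasi-likelihood test, Benjamini-Hochberg adjusted p under 0.05), 6.74% being higher. A complete separation of the 9 STAT6MUT from the 9 STAT6WT libraries was found for 0.268% of 9706 genes at 2 h, 0.34% at 4 h and 0.0721% at 8 h. Of the 5 genes, 4 separated completely at 2 h, all but EPB41L5, and ZNF286A also at 4 h. At 8 h none of the 5 did. Since separation by genotype is what the genes were chosen for, nothing is read from these counts.

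**Figure D1:**
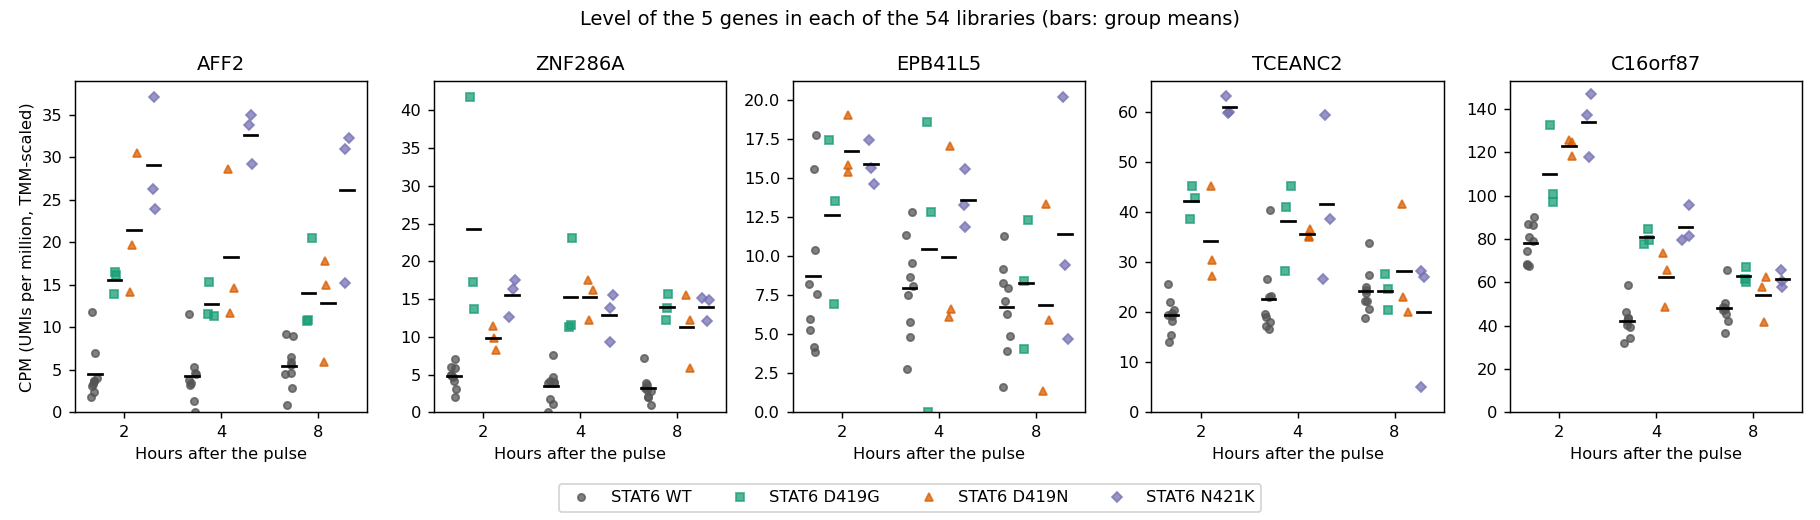
CPM of each gene (y axis, linear, from 0) in every library against the hours after the IL-4 pulse (x axis), with 9 STAT6WT libraries and 3 of each mutant line at each time point, and bars at group means. At 8 h, 8 of 9 STAT6MUT libraries lie above every STAT6WT library for AFF2 and for ZNF286A, 3 of 9 for EPB41L5, 2 of 9 for C16orf87 and 1 of 9 for TCEANC2.

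Whether the 3 mutants differ from each other was tested jointly within the STAT6MUT libraries. AFF2 differed among the lines, and N421K cells had the highest level. It was higher in N421K than in D419G by 1.07 on the log2 scale (95% interval 0.70 to 1.45, 2.10-fold, edgeR adjusted p = 6.14e-05, with 1.32% of genes called) and than in D419N by 0.81 (0.46 to 1.16, 1.75-fold, adjusted p = 0.00246, with 1.88% of genes called). D419G and D419N, which exchange the same residue, differed by -0.26 (-0.71 to 0.18, adjusted p = 0.782), which leaves a difference of either sign possible. The joint test gave AFF2 an adjusted p of 2.14e-05, and of the 5 genes it was the only one called, against a background of 2.39% of 9706 genes. Without the replicates numbered 3, the difference between N421K and D419N was 0.58 with an adjusted p of 0.218, while that between N421K and D419G kept an adjusted p of at most 0.0412 whichever replicate number was left out. Only the numbers 1 to 3 occur in the mutant lines, so leaving out a higher number removed no STAT6MUT library.

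The other 4 genes did not pass the joint test. That test fits a single difference per line over all time points, so a line difference confined to some time points is averaged. For TCEANC2 the N421K libraries lay at 59.9 to 63.3 CPM at 2 h, where D419G and D419N libraries reached at most 45.3. At 8 h the N421K libraries lay at 5.05 to 28.2 CPM. Line differences at single time points were not tested. ZNF286A had an adjusted p of 0.624, with D419G minus D419N at 0.38 (95% interval -0.06 to 0.83) and N421K minus D419G at -0.20 (-0.60 to 0.20). EPB41L5 had an adjusted p of 0.935, with N421K minus D419N at 0.17 (-0.31 to 0.65). TCEANC2 was higher in N421K than in D419N by 0.39 (0.09 to 0.69) and than in D419G by 0.33 (0.02 to 0.64), with a joint p of 0.0201 before and 0.235 after adjustment. C16orf87 was likewise 0.21 (0.02 to 0.39) and 0.20 (0.01 to 0.39) higher in N421K, with a joint p of 0.0449 before and 0.328 after adjustment. That these 4 missed the threshold does not show that the lines are alike, and the intervals give the differences that remain possible.

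**Figure D2:**
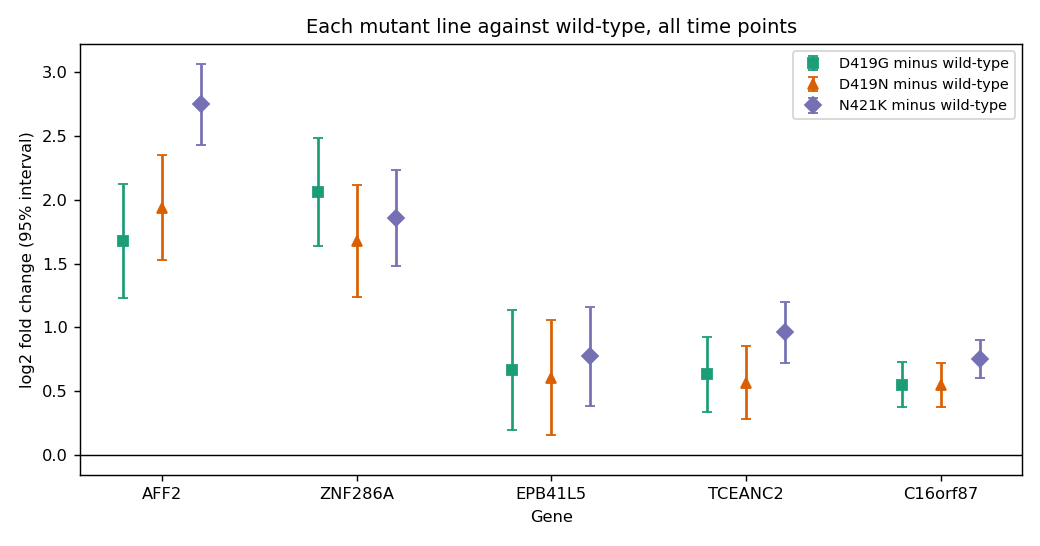
log2 fold change (y axis) of each mutant line against STAT6WT over all time points for the 5 genes (x axis), with 95% intervals from the edgeR fit. N421K stands at 2.75 for AFF2, above D419G at 1.67 and D419N at 1.94, while the intervals of the 3 lines overlap for the other 4 genes.

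The calls over time were not the same for all 5 genes. In STAT6WT cells only C16orf87 was called between 2 and 8 h, as were 27.6% of 9507 genes. It fell by 0.74 on the log2 scale (SE 0.099, adjusted p = 3.68e-09), with a fall of 0.89 by 4 h (SE 0.104, adjusted p = 1.28e-10, with 10.9% of genes called). AFF2 was at 0.50 (95% interval -0.24 to 1.25, adjusted p = 0.331), ZNF286A at -0.35 (-0.99 to 0.29, adjusted p = 0.451), EPB41L5 at -0.18 (-0.72 to 0.36, adjusted p = 0.669) and TCEANC2 at 0.25 (-0.05 to 0.56, adjusted p = 0.224) for 8 h minus 2 h. AFF2, ZNF286A and EPB41L5 had medians of only 5, 3 and 7 UMIs per STAT6WT library. At such counts a missed call does not show a constant level, and the intervals give the changes that remain possible.

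In STAT6MUT cells, EPB41L5, TCEANC2 and C16orf87 fell from 2 to 8 h, against a background of 33.8% of genes changed. EPB41L5 fell by 1.05 (SE 0.258, adjusted p = 7.18e-04), TCEANC2 fell by 0.97 (SE 0.146, adjusted p = 8.76e-08) and C16orf87 fell by 1.02 (SE 0.097, adjusted p = 1.00e-14). The fall of EPB41L5 rests in part on the replicates numbered 1, without which it was -0.73 with an adjusted p of 0.0771. TCEANC2 fell mainly between 4 and 8 h, where its log2 change was -0.68 (SE 0.157, adjusted p = 0.00152, with 11.7% of genes called), and C16orf87 mainly before 4 h, where it was -0.70 (SE 0.091, adjusted p = 6.05e-09, with 8.9% of genes called). AFF2 and ZNF286A were not called, at -0.13 (-0.56 to 0.31, adjusted p = 0.698) and -0.11 (-0.53 to 0.31, adjusted p = 0.728) between 2 and 8 h.

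Whether the difference between genotypes itself changed with time was tested as an interaction, which 0.957% of 9507 genes passed. TCEANC2 was the only one of the 5 to pass it (adjusted p = 3.96e-04). Its log2 difference between STAT6MUT and STAT6WT went from 1.27 at 2 h (SE 0.139, 2.41-fold) through 0.78 at 4 h (SE 0.152, 1.71-fold) to 0.05 at 8 h (SE 0.163, 1.03-fold), a change of -1.22 from 2 to 8 h (95% interval -1.65 to -0.80, adjusted p = 1.09e-04). It was then 1 of 26 genes, 0.273% of those tested, whose difference was lower at 8 h than at 2 h, while 105 genes, 1.1%, had a higher one. The test was passed without any single mutant line, with a change of -0.97 and an adjusted p of 0.0364 when N421K was left out. Without the 8 shallow libraries the change was -1.19 (adjusted p = 9.52e-04).

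EPB41L5 did not pass, with differences of 1.04 at 2 h (SE 0.233), 0.66 at 4 h (SE 0.261) and 0.17 at 8 h (SE 0.300), an adjusted p of 0.484 for the interaction and a change of -0.87 (95% interval -1.63 to -0.12). C16orf87 had differences of 0.66 (SE 0.086), 0.84 (SE 0.110) and 0.38 (SE 0.111) at 2, 4 and 8 h and an adjusted p of 0.260. AFF2 stood at 2.53 (SE 0.283), 2.43 (SE 0.306) and 1.90 (SE 0.281), with an adjusted p of 0.749. ZNF286A stood at 1.70 (SE 0.243), 2.02 (SE 0.279) and 1.93 (SE 0.274), with an adjusted p of 0.927. These values come from 1 fit of all 54 libraries, which all 5 genes entered. In fits of a single time point, 4 of the 5 had enough UMIs at 2 h (not ZNF286A) and 2 of the 5, TCEANC2 and C16orf87, at 4 and 8 h.

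**Figure D3:**
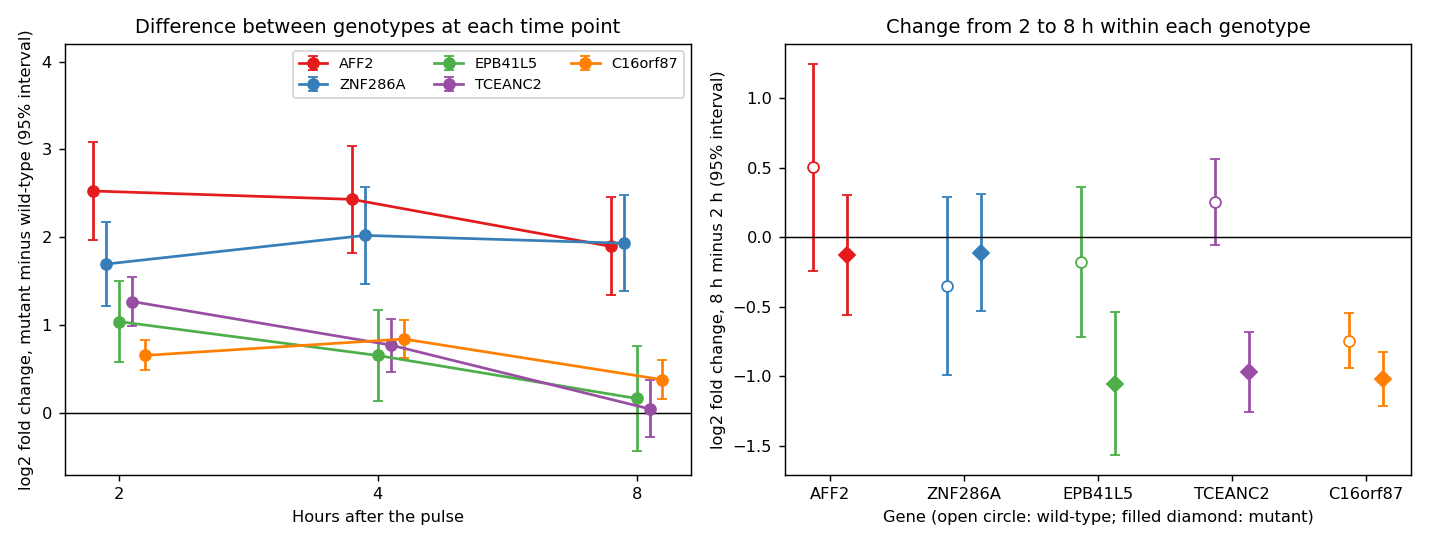
Left, log2 fold change between STAT6MUT and STAT6WT (y axis) at 2, 4 and 8 h (x axis); right, log2 change from 2 to 8 h (y axis) for each gene (x axis) within STAT6WT (open circles) and STAT6MUT (filled diamonds), with 95% intervals. The line of TCEANC2 goes from 1.27 to 0.05, and its mutant diamond is at -0.97 while its wild-type circle is at 0.25.

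Over the 12 groups of line and time point, the mean log2 CPM of AFF2 was most like that of NMI (Pearson r = 0.96), PARP14 (0.93) and HPGD (0.93), and that of ZNF286A most like PARP14 (0.92), EEF2K (0.87) and IFI27 (0.87). PARP14 is listed below as interferon-induced, and the paper reports it as a target gene of mutant STAT6, with D419G bound at its promoter. That binding was measured in a different lymphoma line and under a longer IL-4 stimulation than the pulse used here. EPB41L5 was most like TCF4 (0.96), NLRP7 (0.93) and ZMYM5 (0.92). TCEANC2 was most like LMO4 (0.92), FXR1 (0.90) and ENSG00000276672 (0.90), and C16orf87 most like SMAD1 (0.96), CTDSPL2 (0.95) and XBP1 (0.95). These are the best of the 9706 genes tested in each case, and the groups share the contrast of genotype that chose the 5 genes. Between the 5 genes themselves, r over the 12 group means was at most 0.82 (AFF2 and ZNF286A). Across the 54 libraries after removal of the group means r lay between -0.28 and 0.38 over the 10 pairs. Counting error at these depths draws r towards 0, so these values do not show whether the genes vary together within a group. The spread within groups was close to that of counting alone for ZNF286A (chi-square per degree of freedom 1.01), C16orf87 (1.12) and TCEANC2 (1.18), and larger for AFF2 (1.51) and EPB41L5 (1.58), where the median gene had 1.21.

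The relatives of the 5 genes, and genes of related function, were read against the 13.4% of all genes called between genotypes. Of the 3 other AFF genes, AFF4, a scaffold of the super elongation complex, was higher in STAT6MUT by 0.36 (SE 0.057, adjusted p = 8.53e-07), and AFF1 and AFF3 did not pass the test at 0.07 (SE 0.172) and 0.03 (SE 0.065). AFF1 differed among the mutant lines (adjusted p = 0.00281), with log2 fold changes against STAT6WT of -0.60 in N421K, 0.05 in D419N and 0.73 in D419G. Of 8 partners in the super elongation complex tested, 1 was higher, EAF1 with 0.34 (SE 0.090, adjusted p = 0.00422), and none was lower. Of 7 genes tested from a list of TFIIS and other elongation proteins, TCEANC2 aside, 1 was higher, the elongation factor gene SUPT6H with 0.17 (SE 0.048, adjusted p = 0.00971). TCEA1, which encodes the TFIIS of most tissues, was at 0.03 (SE 0.061, adjusted p = 0.847).

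Of 18 KRAB zinc finger genes and TRIM28 tested besides ZNF286A, 2 were higher, ZNF267 by 0.48 (SE 0.115, adjusted p = 0.00145) and ZNF274 by 0.27 (SE 0.093, adjusted p = 0.0394), and 1 was lower, ZKSCAN1, at -0.23 (SE 0.053, adjusted p = 6.75e-04). The 1 other band 4.1 gene with enough UMIs and the 6 tested Crumbs and Par polarity genes gave no call. The medians of these lists lay between 0.02 and 0.12 on the log2 scale, beside a median of 0.00 over all genes tested.

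Interferon-induced genes and IL-4 targets are given beside the share of 6.74% of all genes that were higher in STAT6MUT, and these lists too were chosen with earlier results known. Of 50 interferon-induced genes listed, 33 passed the count filter. Among these 33, 31 were higher and none lower in STAT6MUT, with a median of 0.93, led by IFI44 (3.22), IFI27 (2.53), PARP14 (2.49) and MX1 (2.28). IFI44, IFI27 and PARP14 had means of only 2.48, 2.66 and 5.36 CPM in STAT6WT, against 18.8, 12.7 and 27.1 in STAT6MUT. Genes this low in STAT6WT pass the filter through their STAT6MUT counts, so the filter itself favours higher calls in this list. AFF2 and ZNF286A, with means of 4.74 and 3.80 CPM in STAT6WT and 20.3 and 14.7 in STAT6MUT, likewise entered the fits through their STAT6MUT counts. The median difference of the 33 went from 0.48 at 2 h to 1.08 at 4 h and 0.88 at 8 h, where TCEANC2 went from 1.27 to 0.05. N421K had the highest median by line (1.19), followed by D419G (0.81) and D419N (0.54). Of the 33, 16 differed among the mutant lines in the joint edgeR test, as AFF2 did, against 2.39% of all genes. PARP14 was 1 of them (adjusted p = 1.22e-04). Of 8 IL-4 and STAT6 target genes tested, 4 were higher over all time points, namely CISH (1.45), IRF4 (0.87), FCER2 (0.39) and SOCS1 (0.35), and IL4R was lower (-0.19). The IL4R difference was -0.71, 0.04 and 0.08 at 2, 4 and 8 h (edgeR interaction adjusted p = 1.04e-09). That of SOCS1 was 0.04, 0.79 and 0.32 (interaction adjusted p = 5.60e-04). Of the B cell markers, 2 were higher and 4 lower, within -0.39 and 0.40.

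The genes beside the 5 on the chromosome were checked in the same fit. TMEM59 lies on the opposite strand and is read away from TCEANC2. Its start lies 35 bases from the TCEANC2 start in RefSeq, so it shares a stretch of the promoter window printed above. It was 0.21 higher in STAT6MUT (SE 0.062, adjusted p = 0.0152), with differences of 0.14, 0.23 and 0.26 at 2, 4 and 8 h (interaction adjusted p = 0.931), where TCEANC2 had 1.27, 0.78 and 0.05. CYB5RL, 57.1 kb on the other side, was at 0.12 (SE 0.084, adjusted p = 0.421). Next to C16orf87, ORC6, a subunit of the origin recognition complex 98.2 kb away, was higher by 0.36 (SE 0.050, adjusted p = 2.02e-08), and GPT2 at 53.2 kb was at -0.03 (SE 0.073, adjusted p = 0.866).

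The tested neighbours of AFF2 were FTH1P8 at 0.07 (SE 0.086, adjusted p = 0.684) and IDS at -0.04 (SE 0.086, adjusted p = 0.837), at 448 kb and 476 kb. Around EPB41L5, TMEM177 was at -0.23 (SE 0.0995, adjusted p = 0.123) and RALB at -0.31 (SE 0.141, adjusted p = 0.149). Around ZNF286A, ZSWIM7 was at -0.07 (SE 0.095, adjusted p = 0.716), and UBE2SP1, a pseudogene of UBE2S inside ZNF286A on the opposite strand, was lower, at -0.40 (SE 0.133, adjusted p = 0.0338). Whether the counting used strand is not stated, so UMIs of ZNF286A and of UBE2SP1 could have been exchanged. ZNF286A also has a close copy, ZNF286B, and reads that fit both cannot be assigned, so its values carry that uncertainty. ZNF286B had a median of 2 UMIs per library, at most 11, and was not tested. Its mean was 1.40 ± 1.63 CPM in STAT6WT (SD, n = 27) and 4.64 ± 2.41 CPM in STAT6MUT (SD, n = 27), the higher level standing in STAT6MUT as for ZNF286A, and the part of shared reads in this was not tested. Transcripts that overlap the other genes were nearly empty: AFF2-IT1 had 6 UMIs in all 54 libraries together and COX7BP3, inside TCEANC2, had 23.

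**Figure D4:**
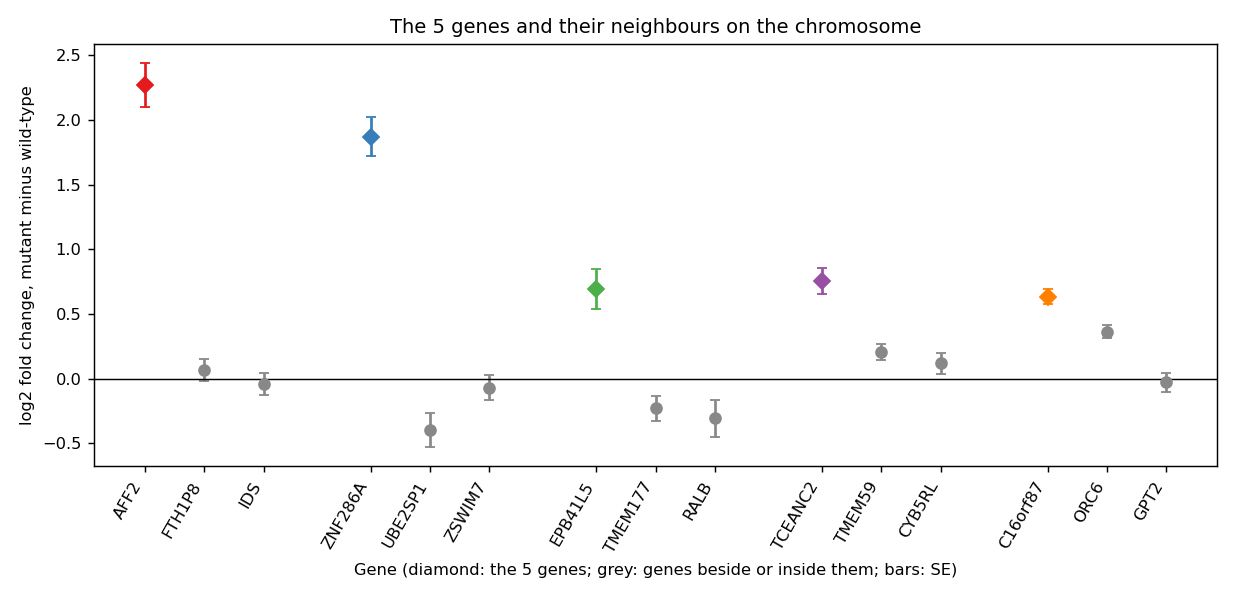
log2 fold change between STAT6MUT and STAT6WT (y axis) with its SE for the 5 genes (diamonds) and for the tested genes beside or inside them (grey circles, x axis). The 5 genes stand between 0.64 and 2.27, and the neighbours between -0.40 (UBE2SP1) and 0.36 (ORC6).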

How the data were processed

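The deposited table held raw counts of UMIs per gene and well, which the authors made by sequencing prime-seq libraries (a barcoded 3′ RNA-seq protocol) on an Illumina HiSeq 1500 and processing the reads with the Drop-seq pipeline. The labels name hg38 as the genome build, and the annotation is not given in the sources used here. Wells were assigned to samples by the labels. Of 31835 identifiers, 30959 matched a symbol.

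Counts were fitted with edgeR 4.0.16 in R 4.3.3 (TMM, filterByExpr given each design, quasi-likelihood test, Benjamini-Hochberg over all genes tested, threshold 0.05) with 1 model per question: genotype and time point, line and time point, or the 6 groups of genotype and time point. Fold changes with SE and 95% intervals come from these fits. The code was tested on simulated data. DESeq2 1.42.0 and limma 3.58.1 (voom) served as alternatives, with other scalings and filters and with replicates, lines or shallow libraries left out. Intervals at single libraries would cover counting error only, and a count of 0 allows up to 3 UMIs.

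The 5 genes and all gene lists were chosen with earlier results of these data known. Beside the 5, the text names the nearest genes with enough counts and overlapping genes, the 3 genes most like each over the 12 groups, and up to 4 called genes per list; TCEA1, AFF1 and AFF3, and the absent blood cell markers, were added after their values were seen. Promoter sequences are from RefSeq (GRCh38.p14).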

Additional observations from a re-analysis of the deposited data

Results flagged for a closer look

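The difference of AFF2 among the 3 mutant lines (adjusted p = 2.14e-05) and the change of the TCEANC2 difference between genotypes with time (adjusted p = 3.96e-04) were each established by a test of the difference itself. A library far from the others of its group was found in 8 of the 30 groups of 4 or more tested. For normally distributed values chance gives about 1 in 20, a rate that was not measured for counts this low or for STAT6MUT groups that hold 3 lines. STAT6WT libraries stood apart on the high side for AFF2 (replicate 9 at 4 h, 11.54 CPM from 9 UMIs, the nearest at 5.39), ZNF286A (replicate 9 at 8 h, 7.23 CPM from 11 UMIs, the nearest at 3.84), TCEANC2 (replicate 8 at 4 h, 40.5 CPM from 32 UMIs, the nearest at 26.6) and C16orf87 (replicate 4 at 8 h, 65.5 CPM from 33 UMIs, the nearest at 50.6). Among the STAT6MUT libraries of a time point, the D419G library of replicate 2 at 2 h was high for ZNF286A (41.8 CPM from 12 UMIs) and low for EPB41L5 (6.97 CPM from 2 UMIs), and held 299578 UMIs in total. The D419N library of replicate 3 at 8 h was low for ZNF286A (5.94 CPM from 1 UMI) and C16orf87 (41.6 CPM from 7 UMIs), and held 161518 UMIs in total.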

How the results depend on the processing

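In the tests of the 5 genes, each call kept its side of the threshold and its direction under every alternative that gave a value, apart from EPB41L5 in mutant cells and AFF2 between N421K and D419N, given above. The joint line test of AFF2 kept an adjusted p of at most 0.0403 and the interaction of TCEANC2 of at most 0.0364. Small uncalled values changed sign in a few cases. ZNF286A from 2 to 8 h in mutant cells was 0.00845 without shallow libraries and 0.00830 with plate row, and ranged from -0.282 to 0.0485 with 1 replicate number left out. In the same way AFF2 ranged from -0.433 to 0.0455 for D419G minus D419N, and EPB41L5 from -0.00099 to 0.383 for N421K minus D419N. A mean of at least 10 UMIs removed ZNF286A and EPB41L5, which have few UMIs, and depth limits what can be said of both.

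With the replicate block the number of genes called between genotypes went from 1237 to 638, and those called at 1 or more time points to 272; it changed no call of the 5 genes. Same-numbered libraries of the genotypes did not deviate together (median r -0.007, 27 pairs). A difference at a single time point could not be fitted with line and replicate number as the block. Without the N421K line, 586 genes were called between genotypes, 43 for the interaction and 379 at 1 or more time points. Leaving out 1 replicate number gave 813 to 1195 genes between genotypes, 851 to 1586 in at least 1 line (1588 with all), 51 to 240 among the mutant lines (232 with all, the fewest without replicates numbered 1), 45 to 95 for the interaction (91 with all, the fewest without replicates numbered 3) and 621 to 1005 at 1 or more time points (952 with all). The fall of EPB41L5 in mutant cells then ranged from -1.27 to -0.73. The STAT6MUT lines have only the replicate numbers 1 to 3, so leaving out a higher number removed STAT6WT libraries only. The cause of these shifts was not tested.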
